A study of Mus musculus with 311 samples.

Results

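Cyp4a12a, Cyp4a12b, Cyp2d9 and Hsd3b5 are 4 liver genes whose transcripts are known to be more abundant in male than in female mice. They were chosen by name, and 5 of the 23388 probes on the arrays carried one of these names. Cyp4a12a, Cyp4a12b and Cyp2d9 had 1 probe each and Hsd3b5 had 2. Each gene was read from the probe with the fewest missing values, as were all 11387 genes measured. No hormone was measured in the data used here, so the genes are described by their own levels and by the arrays they share.

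The samples were livers of 311 F2 mice of both sexes, bred from C57BL/6J and C3H/HeJ, both inbred. The parental strains carried the ApoE null background, so every animal lacked apolipoprotein E, and every animal ate the high-fat Western diet between the ages of 8 and 24 weeks. On each array 1 animal's RNA (Cy3) was set against a common pool of RNA from the study's samples (Cy5), and each animal had 1 array. The values were taken as log10 ratios of animal over pool: 0 is the level of the pool and 1 is 10 times that level. A ratio to the pool says how animals differ in 1 transcript, and gives no level that could be set against another transcript or a check of the tissue by its markers. The labels used here give no sex per animal, so all 311 animals form 1 group. They were divided by a measured value, the Y-linked translation factor gene Eif2s3y, into 155 animals above -0.5 on its probe (called Eif2s3y-high) and 156 not above it (Eif2s3y-low). These are not groups of the study's design. Bulk liver was measured, so fewer cells of a type and less RNA per cell cannot be told apart.

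Hepatocytes of male and female mice express different sets of metabolic genes, and the difference is maintained largely by the pattern of growth hormone release from the pituitary, pulsatile in males and more continuous in females, acting through the receptor Ghr, the kinase Jak2 and the transcription factor Stat5b. Sex steroids set that pattern, and the repressors Bcl6 and Cux2 act on male-biased and female-biased targets. Cyp4a12a and Cyp4a12b are near-identical neighbouring genes for fatty acid omega-hydroxylases that convert arachidonic acid to the vasoactive lipid 20-HETE. Cyp2d9 codes for a steroid 16-alpha-hydroxylase of male liver, and Hsd3b5 for a member of the 3-beta-hydroxysteroid dehydrogenase family that works in liver as a ketosteroid reductase. Each has close relatives in its gene cluster, so a probe of one may also bind transcripts of another, and the probes of Cyp4a12a and Cyp4a12b in particular cannot be assumed to be independent measurements.

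The promoters of Cyp2d9 and Hsd3b5 are shown because these genes moved together among Eif2s3y-high animals, with the largest difference in r from Eif2s3y-low animals of the 6 pairs of genes. Both are the 250 bases before the transcription start from RefSeq (build GRCm38.p6), written 5′ to 3′ on the strand of the gene, at chr15:82452127-82452376 (plus strand) for Cyp2d9 and chr3:98645535-98645784 (minus strand) for Hsd3b5. Capitals mark matches to any of the motifs searched.
Cyp2d9: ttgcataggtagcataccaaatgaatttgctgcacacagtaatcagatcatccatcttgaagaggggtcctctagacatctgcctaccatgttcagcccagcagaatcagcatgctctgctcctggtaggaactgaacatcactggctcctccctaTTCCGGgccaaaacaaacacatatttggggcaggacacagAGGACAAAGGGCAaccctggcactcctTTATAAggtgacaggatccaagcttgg
Hsd3b5: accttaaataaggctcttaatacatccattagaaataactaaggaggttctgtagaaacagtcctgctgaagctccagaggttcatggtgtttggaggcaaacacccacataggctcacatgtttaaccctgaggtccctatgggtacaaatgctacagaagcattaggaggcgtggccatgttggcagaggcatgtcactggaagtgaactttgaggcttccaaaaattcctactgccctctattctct

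The motifs were searched on both strands. In Cyp2d9 the nuclear receptor repeat, 2 copies of AGGNCA with a single A between them, the kind of element that Hnf4a and Ppara bind, was matched by AGGACAAAGGGCA from 54 to 42 bases before the start. Of 32851 promoters of this length, 31 (0.0944%) held that motif. The ETS core TTCCGG lay 94 to 89 bases before the start (12.0% of promoters held it). The TATA core TATAA lay 26 to 22 bases before the start and overlapped its own match on the other strand, TTATA, at 27 to 23 bases (22.8% of promoters). The Stat5 motif TTCNNNGAA (7.02% of promoters) and the steroid receptor core AGAACA (16.1%) had no match in either window, and the Hsd3b5 window matched none of the motifs searched. A match describes letters and not a bound site.

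Eif2s3y left a gap between the animals: the highest Eif2s3y-low value was -0.875 (F2 number 20) and the lowest Eif2s3y-high value -0.219 (F2 number 274). Kdm5d, a Y-linked histone demethylase gene, put 310 of 311 animals on the same side. The exception was F2 number 20, whose Kdm5d value of -0.256 lay above the midpoint of -0.351. Its Cyp2d9 value of -0.856 was that of an Eif2s3y-low animal, while its Hsd3b5 value of -0.633 was high among them.

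Among Eif2s3y-high animals Eif2s3y itself fell into 2 clusters. A mixture of 2 normal distributions was preferred over a single normal, a Student t and a skew-normal distribution by a BIC margin of 29.6, where 10 was required. The lower cluster held 30 animals with a median of 0.0959 and the upper cluster 125 with a median of 0.373. Kdm5d split likewise, by a margin of 33.5, and placed 151 of 155 animals in the same cluster. The median of Hsd3b5 was 0.125 in the lower and 0.127 in the upper Eif2s3y cluster, and the medians of Cyp2d9 were 0.270 and 0.242. For Cyp4a12a they were 0.348 and 0.295, and for Cyp4a12b 0.290 and 0.274. Each of these differences is smaller than the SD within either cluster (at least 0.101 for any of the 4 genes). That SD is the spread among animals and not the error of a median, and the differences were not tested.

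All 4 genes were higher in Eif2s3y-high than in Eif2s3y-low animals, by 10.4-fold to 23.1-fold between the medians. Of 11387 genes, 48 (0.422%) had an Eif2s3y-high median at least 2-fold above the Eif2s3y-low median. The division uses a measured value and the genes were proposed with results known, so these differences are given without a test.

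Cyp2d9, the steroid hydroxylase, lay between -0.140 and 0.505 with a median of 0.249 in 155 Eif2s3y-high animals, and between -1.53 and -0.250 with a median of -0.853 in 156 Eif2s3y-low animals. Every Eif2s3y-high animal was above every Eif2s3y-low animal, with a gap of 0.109. Besides Eif2s3y and Kdm5d, Cyp2d9 was the only one of the 11387 genes (3, or 0.0263%) with this order. For Eif2s3y the order follows from the division made on it, and genes with the opposite order were not counted. The medians differed by 1.10, or 12.6-fold. With the animals divided on Kdm5d, F2 number 20 changed sides and Cyp2d9 overlapped.

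Cyp4a12a ran from -0.312 to 0.562 (median 0.303, n = 152) in Eif2s3y-high and from -1.44 to -0.311 (median -1.06, n = 155) in Eif2s3y-low animals. The medians differed by 1.36, or 23.1-fold, and 1 Eif2s3y-high animal lay at or below the highest Eif2s3y-low animal. For Cyp4a12b the ranges were -0.366 to 0.601 (median 0.275, n = 155) and -1.05 to -0.279 (median -0.740, n = 156). That difference was 1.02, or 10.4-fold, with 1 Eif2s3y-high animal at or below the highest Eif2s3y-low animal. From the other side, 1 Eif2s3y-low animal for Cyp4a12a and 2 for Cyp4a12b lay at or above the lowest Eif2s3y-high animal.

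Hsd3b5, the ketosteroid reductase, behaved otherwise. Its range in Eif2s3y-high animals was -1.38 to 0.918 (median 0.127, n = 155), and in Eif2s3y-low animals -1.46 to -0.132 (median -1.22, n = 156). The medians differed by 1.35, or 22.3-fold, but 61 Eif2s3y-high animals (39.4%) lay at or below the highest Eif2s3y-low animal. Of these, 28 (18.1%) lay at or below -0.856, the 95th percentile of Eif2s3y-low animals. No Eif2s3y-high animal lay at or below the 95th percentile of Eif2s3y-low animals for Cyp4a12b or Cyp2d9, nor did any of the 152 with a Cyp4a12a value for that gene. One of the 28, F2 number 115, lay just below the highest Eif2s3y-low animal in Cyp4a12a.

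The second Hsd3b5 probe did not show this. Its medians were 0.0097 in Eif2s3y-high and 0.0070 in Eif2s3y-low animals, a difference of 0.0027, and its SDs were 0.0553 and 0.0414. The probe that was read represents the transcript L41519 and the second one NM_008295, and the 2 probes disagree on the level, the spread and the relations of Hsd3b5. All values of Hsd3b5 below are those of the probe that was read.

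**Figure D1:**
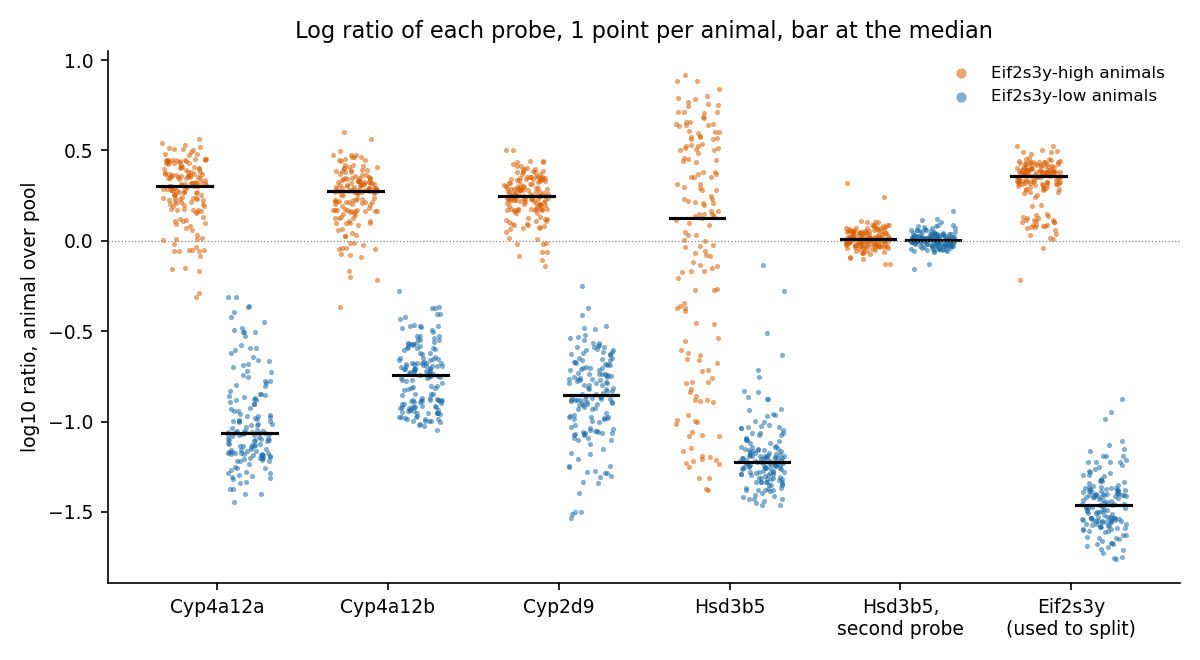
Log10 ratio of animal over pool (vertical axis) for the 5 probes of the 4 genes and for Eif2s3y, 1 point per animal, with a black bar at the median of Eif2s3y-high (orange) and Eif2s3y-low (blue) animals. Cyp2d9 leaves a gap of 0.109, Hsd3b5 spreads from -1.38 to 0.918 among Eif2s3y-high animals, and its second probe stays near 0.

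How much the genes varied within each set of animals was asked next. Among Eif2s3y-high animals Hsd3b5 had an SD of 0.656 (95% interval 0.607 to 0.709, from the kurtosis), which is 10.1 times the SD of the median gene. Its 95th percentile was 94.1 times its 5th percentile, and 2 of the 11387 genes had a larger SD. The SDs of Cyp4a12a, Cyp4a12b and Cyp2d9 there were 0.174 (0.152 to 0.198), 0.156 (0.135 to 0.181) and 0.121 (0.107 to 0.137), or 2.67, 2.40 and 1.86 times that of the median gene. The interval of Hsd3b5 lies above all 3.

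Among Eif2s3y-low animals the order changed. Cyp4a12a had an SD of 0.253 (0.225 to 0.284), Cyp2d9 0.242 (0.216 to 0.272), Hsd3b5 0.194 (0.151 to 0.250) and Cyp4a12b 0.175 (0.160 to 0.192). The interval of Cyp4a12b lies below those of Cyp4a12a and Cyp2d9, which overlap each other, and that of Hsd3b5 overlaps all 3. Cyp4a12a and Cyp2d9 thus varied more among the animals in which they were low, with intervals that do not overlap those of Eif2s3y-high animals. Hsd3b5 varied less there, and the intervals of Cyp4a12b overlap. The medians there were 0.0869 of the pool for Cyp4a12a, 0.140 for Cyp2d9, 0.0600 for Hsd3b5 and 0.182 for Cyp4a12b. The part of measurement noise at low signal in these SDs was not tested.

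The shapes were described by asking whether 2 normal components were preferred over a normal and a Student t distribution. For Hsd3b5 in Eif2s3y-high animals they were, by a BIC margin of 33.9, with 108 animals around 0.324 and 47 around -0.904. Cyp4a12a was called in Eif2s3y-high animals (margin 16.1, with 122 animals around 0.345 and 30 around 0.0592) and in Eif2s3y-low animals (margin 24.7, with 38 around -0.667 and 117 around -1.12). Cyp4a12b was called in Eif2s3y-low animals (margin 15.7, with 101 around -0.665 and 55 around -0.938). Against a skew-normal distribution, an alternative added after the data were seen, the margins were 1.52 for Hsd3b5, -8.95 and -0.303 for Cyp4a12a and 5.61 for Cyp4a12b, all under 10. The animals were therefore not treated as separate clusters of these genes, and values within the components are given beside those over all animals. Cyp2d9 was not called in either set.

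**Figure D2:**
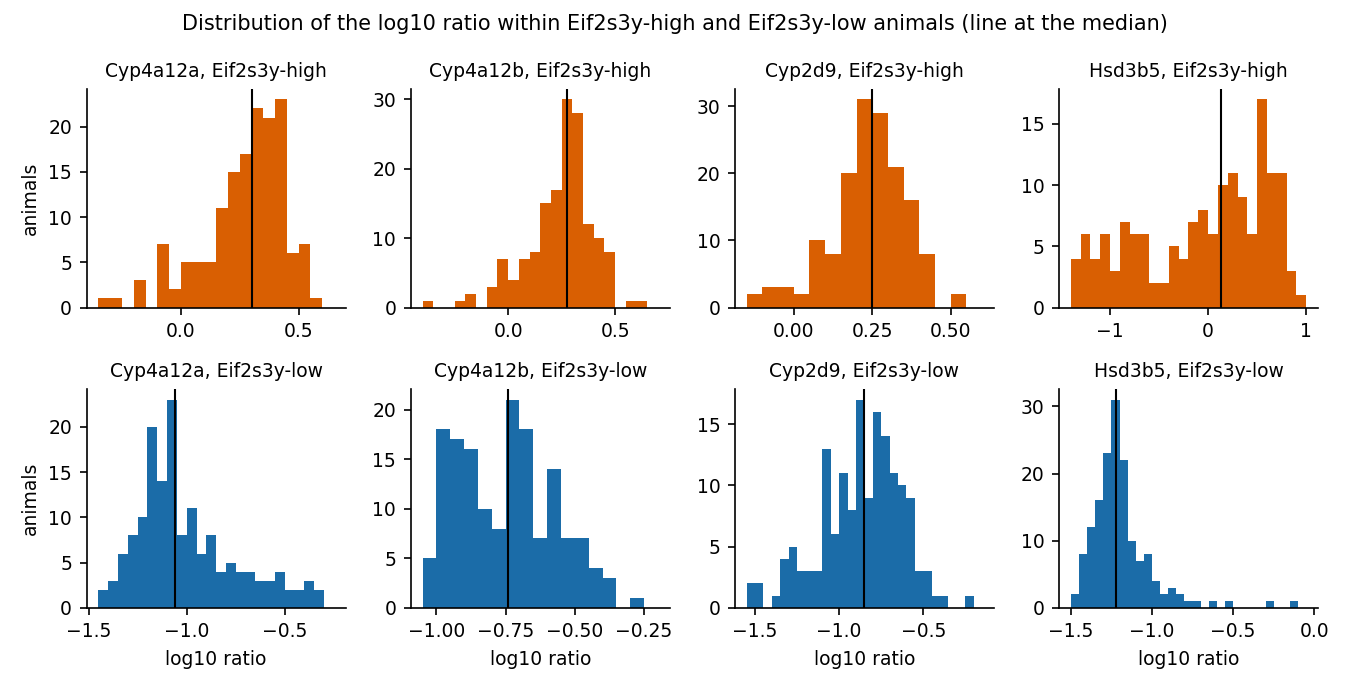
Number of animals (vertical axis) by log10 ratio (horizontal axis, bins of 0.05, and of 0.1 for Hsd3b5 in Eif2s3y-high animals), with a line at the median, for Eif2s3y-high (top) and Eif2s3y-low (bottom) animals. Hsd3b5 fills the whole range from -1.38 to 0.918 in the former, while in the latter it is massed near -1.22 with a few animals far above.

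Whether the 4 genes rise and fall together was tested over the 6 pairs in each set of animals, with two-sided permutation tests and Benjamini-Hochberg adjustment over 36 relations, of which 24 are within components. All 6 pairs were positive and passed in Eif2s3y-high animals, and 5 of 6 passed in Eif2s3y-low animals.

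The near-identical Cyp4a12a and Cyp4a12b were the tightest pair. In Eif2s3y-high animals r was 0.839 (95% interval 0.784 to 0.880, rho 0.757, n = 152), and in Eif2s3y-low animals 0.580 (0.465 to 0.676, rho 0.449, n = 155). Both had an adjusted permutation p of 3.6e-05, and r was 0.816 and 0.543 once the 2 animals whose Cyp4a12a lay farthest from its median were left out. The r values differed by 0.258 (permutation of the animals between the sets, p adjusted over the 6 pairs 0.0012). In the 38 Eif2s3y-low animals of the upper Cyp4a12a component r was 0.769 (rho 0.782, adjusted permutation p of r 3.6e-05). Among the other 117 it was 0.0304 (95% interval -0.152 to 0.211, rho 0.0713, adjusted permutation p of r 0.744). Divided by the components of Cyp4a12b instead, the pair passed in both, with r = 0.558 in the upper (n = 100, adjusted permutation p 3.6e-05) and 0.421 in the lower (n = 55, adjusted permutation p 0.0026).

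Cyp2d9 and Hsd3b5 moved together in Eif2s3y-high animals, with r = 0.660 (0.561 to 0.741, rho 0.616, n = 155, adjusted permutation p 3.6e-05, and 0.642 without the 2 farthest animals). In Eif2s3y-low animals r was 0.142 (-0.0153 to 0.293, rho 0.139, n = 156, adjusted permutation p 0.0934), which did not pass. The difference of 0.518 was the largest of the 6 pairs (permutation p adjusted over the 6 pairs 6e-05). In Eif2s3y-low animals the Hsd3b5 median was 0.0600 of the pool, with an SD of 0.194 against 0.656 in Eif2s3y-high animals. The part of low signal and narrower spread in this difference was not tested. Within the components of Hsd3b5 in Eif2s3y-high animals, r with Cyp2d9 was 0.361 in the upper (n = 108, adjusted permutation p 0.000309) and 0.695 in the lower (n = 47, adjusted permutation p 3.6e-05). In Eif2s3y-low animals with F2 numbers above the median of 186, r was 0.235 and passed.

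**Figure D3:**
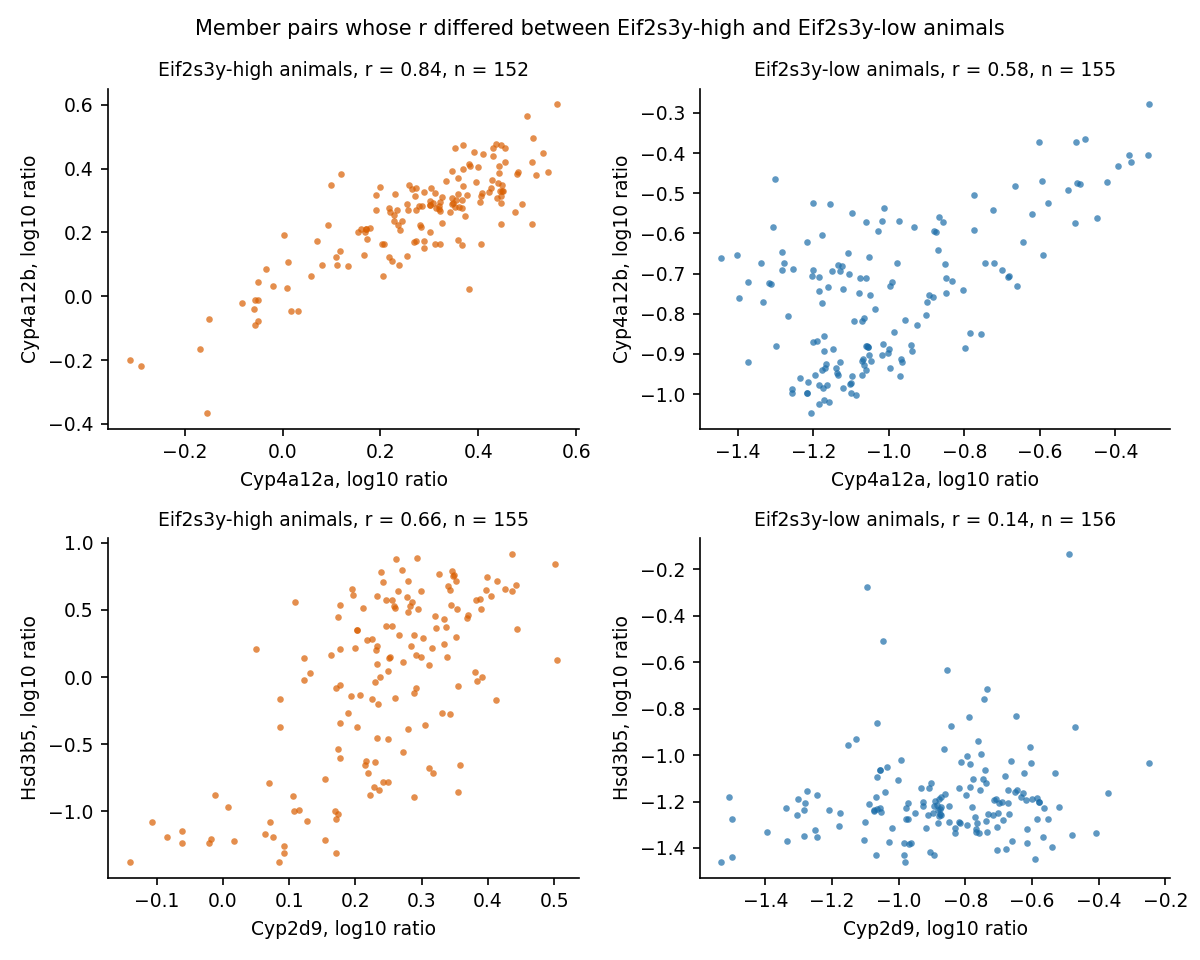
Log10 ratios of Cyp4a12b against Cyp4a12a (top) and of Hsd3b5 against Cyp2d9 (bottom), 1 point per animal, in Eif2s3y-high (left) and Eif2s3y-low (right) animals on separate scales. The r values fall from 0.839 to 0.580 and from 0.660 to 0.142.

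The hydroxylases were more loosely tied to Cyp2d9 and Hsd3b5. Cyp4a12a and Cyp2d9 had r = 0.363 in Eif2s3y-high and 0.345 in Eif2s3y-low animals (rho 0.337 and 0.343, adjusted permutation p 6e-05 and 3.6e-05). Cyp4a12b and Cyp2d9 had 0.401 and 0.298 (rho 0.342 and 0.308, adjusted permutation p 6e-05 and 0.000382). With Hsd3b5, Cyp4a12a had 0.222 and 0.330 (rho 0.240 and 0.422, adjusted permutation p 0.00897 and 8.31e-05), and Cyp4a12b had 0.242 and 0.268 (rho 0.233 and 0.245, adjusted permutation p 0.00453 and 0.00127). With the 2 animals of most extreme hydroxylase level left out, these r values lay between 0.164 and 0.390. None of the 4 pairs differed detectably between the sets (permutation p adjusted over the 6 pairs at least 0.445). Among Eif2s3y-high animals with F2 numbers above the median, r with Hsd3b5 was 0.111 for Cyp4a12a and 0.189 for Cyp4a12b, and neither passed. In Eif2s3y-low animals with F2 numbers above the median, r of Cyp4a12a with Hsd3b5 was 0.203 and did not pass.

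Within the lower Hsd3b5 component of Eif2s3y-high animals, Cyp4a12a (r = 0.421, n = 44) and Cyp4a12b (r = 0.516, n = 47) were related to Hsd3b5 (adjusted permutation p 0.00696 and 0.000312). Within the upper component r was 0.230 for Cyp4a12a (n = 108, adjusted permutation p 0.0251) and 0.126 for Cyp4a12b (n = 108, adjusted permutation p 0.21). Within the lower component, lower Hsd3b5 thus went with lower Cyp4a12a, Cyp4a12b and Cyp2d9. The differences between the components were not tested.

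Measures of the arrays were set against the genes in 40 relations. Among Eif2s3y-low animals Cyp4a12a was higher on arrays with a smaller SD of all probes (r = -0.351, rho -0.449, -0.373 without the 2 farthest arrays, n = 155, adjusted permutation p 0.0004). It was also higher on arrays with more Eif2s3y (r = 0.359, rho 0.379, 0.334 without the 2 farthest) and more Kdm5d (r = 0.382, rho 0.418, 0.356 without the 2 farthest), each with an adjusted permutation p of 0.0004. Hsd3b5 was higher there with more Eif2s3y (r = 0.323, rho 0.392, 0.263 without the 2 farthest, adjusted permutation p 0.0013) and Kdm5d (r = 0.224, rho 0.287, 0.162 without the 2 farthest, adjusted permutation p 0.0374). All of these were low there, with medians of 0.0347 of the pool for Eif2s3y, 0.0962 for Kdm5d, 0.0869 for Cyp4a12a and 0.0600 for Hsd3b5. The part of signal near background in these relations was not tested. Cyp4a12b was higher with more missing values (r = 0.285, rho 0.178, 0.277 without the 2 farthest), which passed for r (adjusted permutation p 0.00192) but not for rho (0.104). The part of these measures in the results was not tested. With Eif2s3y and Kdm5d as covariates all 6 pairs of Eif2s3y-high and 5 of Eif2s3y-low animals passed. The SD of all probes and the missing values were not used as covariates.

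In Eif2s3y-high animals the SD of all probes, the number of missing values and the F2 number did not pass against any of the 4 genes (lowest unadjusted permutation p of r 0.0623, for Cyp4a12a and the F2 number). Since Eif2s3y was clustered there, it was also taken within its clusters, in 8 relations. In the upper cluster Eif2s3y fell as Cyp4a12a rose (r = -0.332, rho -0.282, -0.330 without the 2 farthest, n = 122) and as Cyp4a12b rose (r = -0.331, rho -0.235, -0.252 without the 2 farthest, n = 125), each with an adjusted permutation p of 0.001. Over all Eif2s3y-high animals these r were -0.195 and -0.146 (adjusted permutation p 0.0921 and 0.225), and rho passed for Cyp4a12a (-0.250, adjusted permutation p 0.0147). For Kdm5d r had the other sign there, 0.103 and 0.0675 (adjusted permutation p 0.445 and 0.572). No relation passed in the lower cluster, which held 30 animals. Without that cluster the 6 pairs had r between 0.286 and 0.843.

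Animals more than 3.5 scaled median absolute deviations from the median of their set were described singly. There were 5 among Eif2s3y-high animals, all low in the gene concerned, and 10 among Eif2s3y-low animals, all high. F2 number 115 was low in both hydroxylases, at -0.312 for Cyp4a12a and -0.199 for Cyp4a12b, and its Hsd3b5 value was -1.21. F2 number 208 was low in both too, at -0.289 and -0.218, with Hsd3b5 at -0.990. These 2 animals were the lowest of their set in Cyp4a12a. F2 numbers 161 and 345 passed the threshold in Cyp4a12b, at -0.164 and -0.366. Their Cyp4a12a values of -0.170 and -0.154 were low too, with 1.32% and 1.97% of the set below them. Hsd3b5 was at 0.291 and 0.138 in them, above the Eif2s3y-high median. F2 number 292 had the lowest Cyp2d9 of its set, at -0.140, with Hsd3b5 at -1.37 and no Cyp4a12a value.

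Of 4 female-biased genes looked up on these arrays, F2 number 208 stood out in 2. It had the highest values of its set for A1bg, a plasma glycoprotein of female liver, at -1.29, and for the sulfotransferase Sult2a2, at -1.13. Those levels were still below the Eif2s3y-low medians of -0.110 and 0.180, and its values of Hao2 and Cyp2b9 had 65.8% and 66.4% of the set below them. F2 number 292, in contrast, lay near the bottom of its set for A1bg (-1.88) and the cytochrome Cyp2b9 (-0.287) and near the top for the peroxisomal oxidase Hao2 (-0.624). Cyp2b9 was not higher in Eif2s3y-low animals here, with medians of -0.0122 in Eif2s3y-high and -0.113 in Eif2s3y-low animals.

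Among Eif2s3y-low animals, F2 numbers 64, 190, 65 and 264 were high in Cyp4a12a, at -0.311, -0.313, -0.358 and -0.365. The first of these lay just above the lowest Eif2s3y-high value of -0.312. Their Cyp4a12b values, -0.279, -0.405, -0.421 and -0.404, were also among the highest of the set. F2 number 64 was also high in Cyp2d9 and Hsd3b5 (-0.471 and -0.877, with 97.4% and 92.9% of the set below it). F2 numbers 64, 190 and 264 had Sult2a2 values of -0.832, -0.606 and -0.538, with at most 11.5% of the set below them, while F2 number 65 had 0.117.

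The 6 Eif2s3y-low animals high in Hsd3b5 were others. F2 number 263 had -0.132, 47 had -0.277, 222 had -0.508, 20 had -0.633, 260 had -0.717 and 70 had -0.756. F2 number 263 is the animal whose title and source name give different F2 numbers. It and F2 number 47 lay above -0.389, the highest value of the lower Hsd3b5 component of Eif2s3y-high animals. Sult2a2 was at -1.06 in F2 number 263 and -1.11 in 47, with 1.92% and 1.28% of the set below them, and at -0.640 in 70. In F2 numbers 222 and 260 it was at -0.339 and -0.327, and in 20, the animal nearest the threshold on Eif2s3y, it was at 0.333, above the median. Eif2s3y lay between -1.47 and -1.37 in the other 5, near the median of the set of -1.46.

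Which other genes follow each of the 4 was asked over all genes, with limma fits within each set of animals and Benjamini-Hochberg adjustment over all probes. Among Eif2s3y-high animals 2579 of 11351 genes (22.7%) rose with Hsd3b5 and 2366 (20.8%) fell as it rose. For Cyp2d9 the shares were 18.7% and 18.1%, for Cyp4a12a 13.3% and 11.7%, and for Cyp4a12b 11% and 9.79%. Among Eif2s3y-low animals they were 2.3% and 2.43% for Hsd3b5, 2.61% and 2.04% for Cyp2d9, 5.57% and 6.1% for Cyp4a12a, and 2.48% and 2.6% for Cyp4a12b. With 5 principal components of the set removed, 465 genes were related to Hsd3b5 in Eif2s3y-high animals in place of 4945, of which 157 had the same sign as before and 141 the opposite one. For Cyp2d9 444 were related in place of 4177, 200 with the same and 33 with the opposite sign.

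Hsd3b5 was closely tracked in Eif2s3y-high animals. Slco1a1, an organic anion transporter of male liver, had r = 0.922 (95% interval 0.894 to 0.942, limma adjusted p 7.65e-62). Next came the fatty acid hydroxylase Cyp4f14 (0.867), the growth factor receptor Egfr (0.854), the oxysterol hydroxylase Cyp7b1 (0.854) and the serpin Serpina3f (0.844). Lowest were the transporter Slc22a27 (-0.806), the recombination factor Rad51b (-0.747), carnitine acetyltransferase Crat (-0.717), the quinone reductase Nqo1 (-0.716) and the hexokinase Hk2 (-0.704). Within the Hsd3b5 components, 3207 genes were related in the upper and 10 in the lower. Slco1a1 (r = 0.776 and 0.781), Cyp4f14 (0.764 and 0.717), Egfr (0.742 and 0.636) and Slc22a27 (-0.651 and -0.576) passed in both. Cyp7b1 (0.740 and 0.488), Serpina3f (0.698 and 0.515), Rad51b (-0.730 and -0.238), Crat (-0.550 and -0.154), Nqo1 (-0.627 and -0.319) and Hk2 (-0.644 and -0.216) passed in the upper only.

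In Eif2s3y-low animals Slco1a1 (0.742) and Cyp7b1 (0.580) again led the list for Hsd3b5, followed by Sox15 (0.531), the serpin pseudogene Serpina4-ps1 (0.490) and the apoptosis gene Bmf (0.462). Lowest were the sulfotransferases Sult2a2 (-0.518) and Sult2a1 (-0.475), then Sparcl1 (-0.437), the prostaglandin receptor Ptgfr (-0.422) and Endod1 (-0.407). Slopes were compared per SD of Hsd3b5 within each set, which was 0.656 in Eif2s3y-high and 0.194 in Eif2s3y-low animals. On that scale those of Slco1a1 and Cyp7b1 differed between the sets (limma interaction, adjusted p 4.9e-18 and 1.98e-26). They were larger in Eif2s3y-high animals. Slopes per unit of log10 ratio were not compared, here or for the other genes.

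Cyp4f14, Egfr, Slco1a1 and Slc22a27 came up for Cyp2d9 too in Eif2s3y-high animals. Cyp4f14 (0.706), the mitochondrial transporter Abcb10 (0.668), the carboxylesterase Ces3b (0.636), Egfr (0.636) and Slco1a1 (0.629) were highest. Naip2 (-0.622), a sensor of bacterial proteins, Slc22a27 (-0.592), the lipoprotein receptor Vldlr (-0.586), the protease Casp1 (-0.578) and the noncoding RNA H19 (-0.577) were lowest. In Eif2s3y-low animals other genes came first: the glutathione transferase Gstp1 (0.496), SPACA4 (0.489), Omd (0.480), Atp9a (0.462) and the melatonin receptor Mtnr1a (0.459). At the other end stood Cyp3a16 (-0.590), a cytochrome P450 of female liver, the hormone subunit Cga (-0.551), the transporter Slc22a26 (-0.481), Sult2a2 (-0.468) and Sult2a1 (-0.453).

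Cyp4a12a and Cyp4a12b followed a different set in Eif2s3y-high animals. Catalase (Cat, which breaks down hydrogen peroxide) was highest for both, at 0.744 and 0.694, and the transcription factor Nfix was near the top for both, at 0.703 and 0.675. Cyp4a12a was also high with Zfp574 (0.708), the corepressor subunit Tbl1x (0.697) and Rusf1 (0.687), and Cyp4a12b with the catenin Ctnnd1 (0.666), Dolpp1 (0.656) and the mitochondrial carrier Slc25a23 (0.643). The proteasome subunit Psma2 was low for both (-0.583 and -0.597). Otherwise the histone demethylase Kdm7a (-0.635), FAM103A1 (-0.606), Abi1 (-0.588) and Acp1 (-0.578) were lowest for Cyp4a12a. For Cyp4a12b these were the nuclear envelope protein Emd (-0.632), Laptm4a (-0.582), SEC23B (-0.568) and Kdelr1 (-0.564).

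In Eif2s3y-low animals Cyp4a12a rose with Bdnf (0.595), Nat8 (0.580), the heme synthesis enzyme Alas2 (0.555), the lysosomal arylsulfatase Arsa (0.537) and Mtnr1a (0.529). It was lowest with Cyp3a16 (-0.574), Sult2a1 (-0.553), the apolipoprotein Apom (-0.527), Slc22a26 (-0.522) and Sult2a2 (-0.519). Within the Cyp4a12a components, Bdnf (r = 0.453), Nat8 (0.454), Alas2 (0.383) and Cyp3a16 (-0.429) passed in the lower only (limma). Arsa, Mtnr1a, Sult2a1, Apom, Slc22a26 and Sult2a2 passed in neither component. Cyp4a12b rose with the lipid droplet protein Cidea (0.617), Cd248 (0.478), complement C6 (0.467), Taldo1 (0.462) and Ptp4a2 (0.421), and was lowest with Apom (-0.441), the repressor Prdm1 (-0.434), Mfhas1 (-0.421), Ppp4r4 (-0.411) and Cyp3a16 (-0.405). Sult2a1, Sult2a2 or Cyp3a16 was thus among the lowest for each of the 4 genes. None of the genes named here for Cyp4a12b passed within either of its components.

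Relations could run in opposite directions in the 2 sets of animals. Of 409 genes related to Hsd3b5 in both, 4 had opposite signs, against 58 of 229 for Cyp2d9, 26 of 509 for Cyp4a12a and 10 of 195 for Cyp4a12b. The slopes of all of these differed by limma's interaction test, which adds little, since the genes were picked for passing with opposite signs. Over all genes the slope per SD within each set differed for 21.4% with Hsd3b5, 21.5% with Cyp2d9, 6.77% with Cyp4a12a and 5.34% with Cyp4a12b. Sult2a1, which sulfates steroids and bile acids, rose with Hsd3b5 in Eif2s3y-high animals (r = 0.761) and fell as it rose in Eif2s3y-low animals (-0.475, limma interaction adjusted p 2.31e-28). It turned likewise for Cyp2d9 (0.453 and -0.453). Sult2a1 ran from -1.03 to -0.128 (median -0.590) in Eif2s3y-high and from -0.436 to 0.689 (median 0.126) in Eif2s3y-low animals.

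Its relative Sult2a2 turned from 0.219 to -0.518 with Hsd3b5 and from 0.330 to -0.468 with Cyp2d9. Cidea, a protein of lipid droplets abundant in fatty liver, turned the other way, from -0.537 to 0.278 with Hsd3b5 and from -0.254 to 0.274 with Cyp2d9. In Eif2s3y-high and Eif2s3y-low animals the medians were -1.54 and 0.180 for Sult2a2 and -0.181 and -1.16 for Cidea. Each was thus far below the pool in 1 of the sets, and the part of low signal in these turns was not tested. Arsa turned from -0.314 to 0.537 with Cyp4a12a, from -0.30 to 0.331 with Cyp4a12b and from -0.407 to 0.335 with Cyp2d9. Apom, which carries sphingosine 1-phosphate, turned from 0.376 to -0.312 with Cyp2d9.

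**Figure D4:**
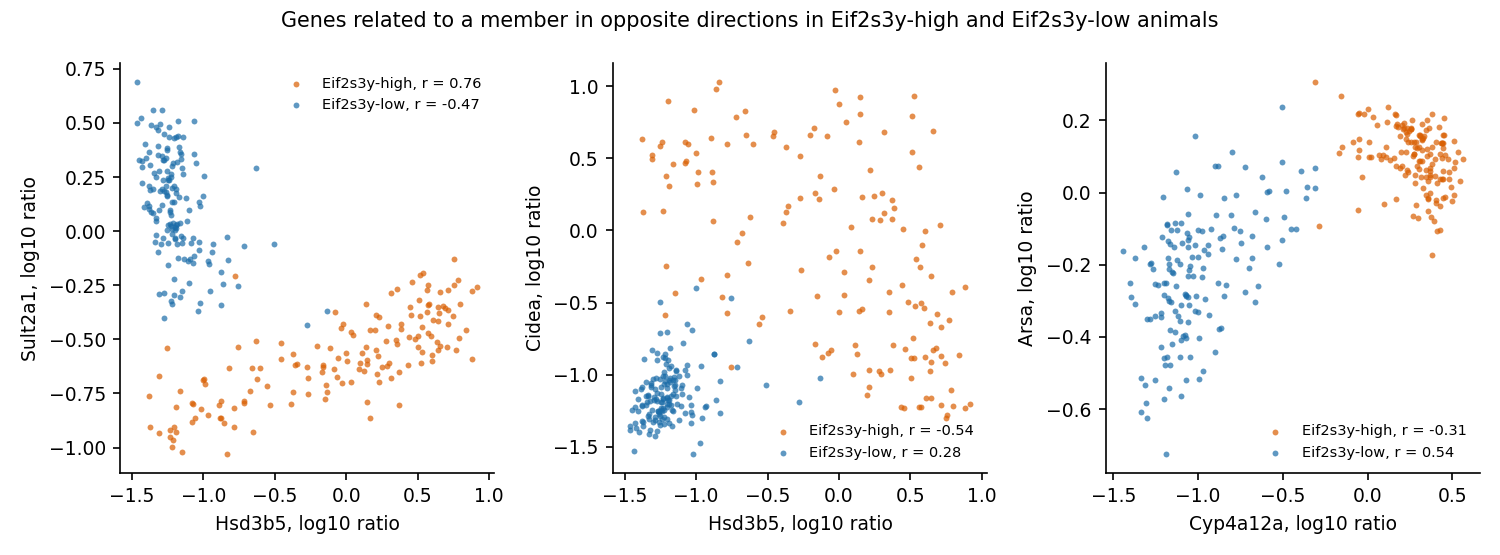
Log10 ratios, 1 point per animal, of Sult2a1 and Cidea against Hsd3b5 and of Arsa against Cyp4a12a, for Eif2s3y-high (orange) and Eif2s3y-low (blue) animals. In each panel the r values have opposite signs, from 0.761 and -0.475 for Sult2a1 to -0.314 and 0.537 for Arsa.

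Gene lists describe what else moved. Counts are of measured genes whose limma adjusted p was under 0.05, to be read against the shares of all genes above, with the median r over the list. Of the other male-biased liver genes, 10 of 20 were measured and 0 fell in any of the 8 limma fits, nor at an unadjusted p under 0.05. In Eif2s3y-high animals 9 rose with Hsd3b5 (median r 0.571), 9 with Cyp2d9 (0.452), 6 with Cyp4a12b (0.245) and 4 with Cyp4a12a (0.167). Slco1a1, Egfr, Cyp7b1 and the coenzyme A hydrolase Nudt7 (0.786 with Hsd3b5) were the strongest. In Eif2s3y-low animals 5 rose with Hsd3b5 (0.244), 3 with Cyp2d9 (0.153), 4 with Cyp4a12b (0.177) and 5 with Cyp4a12a (0.220). The genes differed between members there: Slco1a1 was related to Hsd3b5 but not to Cyp2d9 (0.166), and Gstp1 to Cyp2d9 but not to Hsd3b5 (-0.0798).

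Of 21 measured female-biased genes, 12 fell as Cyp4a12a rose in Eif2s3y-low animals (median r -0.243), 11 as Cyp2d9 rose (-0.246), 8 as Cyp4a12b rose (-0.170) and 3 as Hsd3b5 rose (-0.0972). At most 1 rose in each of these fits. In Eif2s3y-high animals the list was mixed, with 5 up and 7 down for Hsd3b5 and 4 up and 9 down for Cyp2d9. Sult2a1 was one of the 5, and the fatty acid transporter Cd36 (-0.623), the peroxisomal transporter Abcd2 (-0.568) and the monooxygenase Fmo2 (-0.557) were among those that fell with Hsd3b5.

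Of growth hormone signalling genes 13 of 16 were measured. In Eif2s3y-high animals 3 rose and 3 fell with Cyp4a12a, 3 rose and 2 fell with Cyp4a12b, 2 rose and 1 fell with Cyp2d9, and 1 rose and 1 fell with Hsd3b5. The shares of all genes were, in the same order, 13.3% and 11.7%, 11% and 9.79%, 18.7% and 18.1%, and 22.7% and 20.8%. The receptor Ghr rose with Hsd3b5 (r = 0.644), Cyp2d9 (0.450), Cyp4a12b (0.333) and Cyp4a12a (0.252) in Eif2s3y-high animals. Jak2 fell as Cyp4a12a rose (-0.403), as did the feedback inhibitor Socs3 (-0.341), while Stat5a rose (0.274). Ghr, Jak2, Socs3 and Stat5a did not pass with Cyp4a12a within either of its components. In Eif2s3y-low animals the female-biased repressor Cux2 fell as Cyp4a12a (-0.483), Cyp4a12b (-0.346) and Cyp2d9 (-0.297) rose, and had r = -0.0626 with Hsd3b5. With Hsd3b5 0 genes of the list passed in Eif2s3y-low animals by limma, and 1 had an unadjusted p under 0.05.

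Of 12 measured steroid and nuclear receptor genes, 5 rose with Hsd3b5 and 5 with Cyp2d9 in Eif2s3y-high animals, and 0 fell (limma, also 0 at an unadjusted p under 0.05). The oestrogen receptor Esr1 had r = 0.636 with Hsd3b5 and 0.507 with Cyp2d9, the steroid dehydrogenase Hsd17b2 0.661 and 0.373, and the hepatocyte factor Hnf4a 0.545 and 0.377. In Eif2s3y-low animals Esr1 (-0.274), Hnf4a (-0.249) and Rxra (-0.249) fell as Cyp4a12a rose, and the bile acid receptor Nr1h4 rose with Hsd3b5 (0.253).

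The gene families of the 4 were described too. Of 5 measured Hsd3b relatives 4 rose with Hsd3b5 in Eif2s3y-high animals, Hsd3b4 (0.681) and Hsd3b2 (0.652) most, and 1, Hsd3b2 (0.283), in Eif2s3y-low animals. Of 3 measured Cyp2d relatives 2 rose with Cyp2d9 in Eif2s3y-high animals, Cyp2d10 (0.591) and Cyp2d22 (0.543). Of 10 measured Cyp4 relatives, 5 rose and 1 fell with Cyp4a12a in Eif2s3y-high animals, Cyp4f13 (0.503) most, and 0 passed with Cyp4a12a, Cyp4a12b or Cyp2d9 in Eif2s3y-low animals by limma, with 2, 0 and 1 at an unadjusted p under 0.05. Probes of such relatives may share transcripts with those of the 4 genes.

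Lipid storage genes fell as Hsd3b5 rose in Eif2s3y-high animals in 5 of 6 cases (median r -0.568) and as Cyp2d9 rose in 5 of 6 (-0.371). Cd36, which is also in the female-biased list, the lipid droplet coat protein Plin4 (-0.614), the fatty acid carrier Fabp4 (-0.578) and the adipogenic receptor Pparg (-0.558) were the strongest with Hsd3b5. In Eif2s3y-low animals 4 of 6 rose with Cyp4a12a (0.281), Cidea (0.494) and Plin4 (0.301) most, and with Hsd3b5 1 rose, Cidea (0.278), and 1 fell, Pparg (-0.298). The slope per SD of Hsd3b5 within each set differed between the sets for 5 of the 6 genes by limma's interaction test. Of 12 fatty acid synthesis genes 7 fell as Hsd3b5 rose in Eif2s3y-high animals, among them Scd2 (-0.649) and Fasn (-0.456), and the glucose-sensing factor Mlxipl rose (0.473). Of 13 genes of fatty acid oxidation 6 fell, Vnn1 (-0.537) and Ehhadh (-0.521) among them, and of 13 cholesterol synthesis genes 3 fell. Of all genes 20.8% fell as Hsd3b5 rose in these animals, and the cholesterol synthesis count is near that share.

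Markers of other cell types moved with Hsd3b5 and Cyp2d9 in Eif2s3y-high animals. Of 13 macrophage genes 10 fell as each rose (median r -0.334 and -0.312), with the protease Ctss at -0.579, Cd14 at -0.567 and Csf1r at -0.491 for Hsd3b5. The mean log10 ratio of the 13 genes ranged from -0.249 to 0.163 in Eif2s3y-high and from -0.194 to 0.289 in Eif2s3y-low animals. Of 7 lymphocyte genes 3 fell with Hsd3b5, Ptprc (-0.524) most, and 1 rose, Cd3e (0.690), against Cd2 (-0.379) and with Cd3d (-0.175) not passing. Of 9 matrix genes 5 fell, Lox (-0.562) and Lum (-0.442) most, and of 4 bile duct genes 2, Epcam (-0.431) and Prom1 (-0.358). Of 6 measured hepatocyte genes 4 rose, Ass1 (0.435) most. The shares of all genes there were 22.7% up and 20.8% down with Hsd3b5, and 18.1% down with Cyp2d9. The part of these cells in the results was not tested. In Eif2s3y-low animals at most 1 gene of each of these lists passed with Hsd3b5.

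Acute phase and interferon lists were weaker. Of 14 acute phase genes 4 rose and 3 fell as Hsd3b5 rose in Eif2s3y-high animals, where Lcn2 (-0.539) and Orm2 (-0.332) fell and Saa4 (0.360) rose. With Cyp4a12a 2 rose and 5 fell, Saa4 (0.439) and Orm1 (-0.398) most. Of 16 interferon-stimulated genes 6 fell and 1 rose with Hsd3b5, Ifit2 (-0.468) most. The shares of all genes there were 22.7% up and 20.8% down with Hsd3b5, and 13.3% and 11.7% with Cyp4a12a. In Eif2s3y-low animals 5 acute phase genes fell as Cyp2d9 rose, Orm2 (-0.343) and Orm1 (-0.316) among them.

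**Figure D5:**
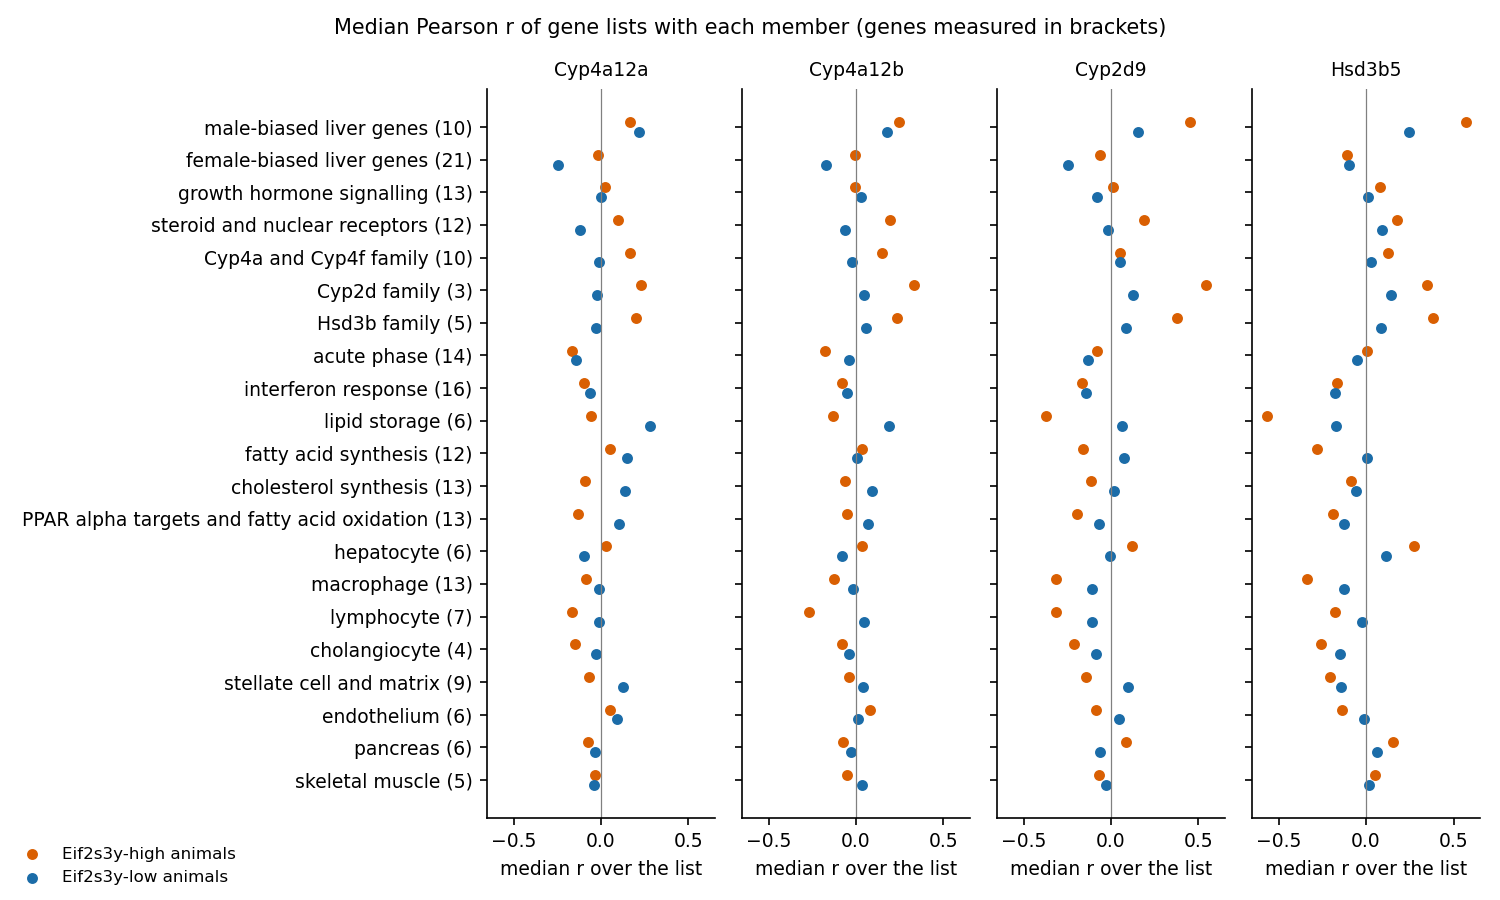
Median Pearson r (horizontal axis) of the measured genes of each list with each of the 4 genes, in Eif2s3y-high (orange) and Eif2s3y-low (blue) animals, with the number of genes in brackets. The male-biased list reaches 0.571 and the lipid storage list -0.568 with Hsd3b5 in Eif2s3y-high animals.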

How the data were processed

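Each of 311 livers was hybridised against a common pool on a 2-colour array. Per the labels, the animal's RNA was Cy3 and the pool Cy5. The authors deposited log10 ratios limited to -2 and 2, while scanner, normalization and probe sequences were not given in the sources used here. Both base and sign were checked on the values: a pool of all samples gives a mean linear ratio near 1, and for the 4 genes it was 0.975 to 1.05 with base 10 and animal over pool, against 3.34 to 10.1 with the sign turned. With animal over pool it was 0.749 to 0.894 with base 2 and 0.724 to 0.884 with base e. The base is thus less firmly set than the sign, and all fold values rest on base 10. Values were used as deposited. Array medians lay between -0.0218 and 0.0172 and SDs between 0.0658 and 0.206, with 0.745% of values missing. The limits were not reached by the 4 genes. Of 48205 pairs of arrays 129 had r under -0.3 (lowest -0.439), and no pair was identical. The direction was kept because the labels give the dyes of every array. Arrays carry no counts, so their number limits the precision.

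Of 23388 probes 13645 named 1 gene, 48 several and 9695 none in the platform's table. Symbols were updated through RefSeq genes of GRCm38.p6 (12653 through Entrez IDs, 4 through accessions, 214 through symbols and 93 through older symbols, with 681 kept). Genes were read from probes on at least 95% of arrays, and 11387 were. Promoters came from RefSeq for 2 of the 4 genes.

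In 1 sample the F2 number of the title differs from that of the source name; the former was taken. The descriptions give another number of mice than the design, and 311 were used.

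The genes, gene lists and tests were chosen with earlier results of these data known. Genes named are the 4, the 5 with the highest and lowest r per gene and set of animals, up to 4 of largest r per list, the Y-linked genes, and A1bg, Hao2, Sult2a2 and Cyp2b9 on outlying arrays. Pearson r and Spearman rho had two-sided permutation tests (100000, so 1e-05 is the smallest p), the design having foreseen 12 relations and 36 being adjusted for. Intervals of r are Fisher's, those of SDs use the kurtosis of the values in place of the resampling the design foresaw, both at 95%. Components needed a BIC margin of 10, a minor weight of 0.1 and an Ashman D of 2. Gene fits used limma (lmFit, eBayes) with Benjamini-Hochberg adjustment at 0.05. The interaction fit, the skew-normal alternative, the fits within components, the Y-linked covariates and the Eif2s3y clusters were added after seeing the data. The methods were tested on simulated data. Tools were limma 3.58.1 in R 4.3.3, and Python 3.11.15 with scipy 1.17.1, numpy 2.4.6, scikit-learn 1.9.0, pandas 2.3.3 and matplotlib 3.10.9.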

Additional observations from a re-analysis of the deposited data

Results flagged for a closer look

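Differences between Eif2s3y-high and Eif2s3y-low animals in how genes moved with the 4 were singled out. The r of Cyp4a12a and Cyp4a12b differed by 0.258 (0.839 against 0.580) and that of Cyp2d9 and Hsd3b5 by 0.518 (0.660 against 0.142), each by permuting animals between the sets, with p adjusted over 6 pairs of 0.0012 and 6e-05. These genes were far below the pool in Eif2s3y-low animals, and the part of low signal in these differences was not tested.

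The slopes of 5 genes, in log10 ratio per SD of one of the 4 genes within each set, also differed by limma's interaction test (adjusted p at most 0.000801). These genes were picked for relations of opposite sign in the 2 sets of animals, so the test adds little to that choice. Eif2s3y-high minus Eif2s3y-low, the slope on Hsd3b5 differed by 0.269 for Sult2a1, 0.264 for Sult2a2 and -0.411 for Cidea. On Cyp2d9 it differed by 0.201 for Sult2a1, 0.257 for Sult2a2, 0.0734 for Apom, -0.0947 for Arsa and -0.222 for Cidea. For Arsa it also differed by -0.121 on Cyp4a12a and -0.0833 on Cyp4a12b.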

How the results depend on the processing

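No paired analysis was possible because all 311 samples form 1 group. Of 331 comparisons of a result with an alternative 274 were classed as the same, as were 341 of 352 counts per gene list. The criterion differed with the kind of result. Counts were compared by their size, without a direction or a side of the threshold. The cause of the changes in the remaining comparisons was not tested. The Hsd3b5 probe that was not read gave a difference between the medians of 0.0027, SDs of 0.0553 and 0.0414 in Eif2s3y-high and Eif2s3y-low animals, a BIC margin of -3.34 and 2 and 3 outlying arrays. Its r in Eif2s3y-high animals was 0.0329 with Cyp4a12a and 0.129 with Cyp4a12b, and in Eif2s3y-low animals -0.0746 and 0.0872. At a BIC margin of 20, Cyp4a12a in Eif2s3y-high (16.1) and Cyp4a12b in Eif2s3y-low animals (15.7) were not called. With a skew-normal distribution the margins were -8.95 and -0.303 for Cyp4a12a, 5.61 for Cyp4a12b and 1.52 for Hsd3b5. Divided on Kdm5d, the SD of Cyp2d9 was 0.149. With F2 numbers above the median the Hsd3b5 medians differed by 1.14. There r of Hsd3b5 in Eif2s3y-high animals was 0.111 with Cyp4a12a and 0.189 with Cyp4a12b, and in Eif2s3y-low animals 0.203 with Cyp4a12a and 0.235 with Cyp2d9. With 5 components removed r was 0.118 for Cyp4a12b and Hsd3b5 in Eif2s3y-high and 0.161 for Cyp2d9 and Hsd3b5 in Eif2s3y-low animals, where it passed. At a threshold of 2.5, outlying arrays numbered 6, 12 and 5 for Cyp4a12a, Cyp4a12b and Cyp2d9 in Eif2s3y-high animals, and 13, 4 and 11 for Cyp4a12a, Cyp2d9 and Hsd3b5 in Eif2s3y-low animals.

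Counts of related genes moved most. In Eif2s3y-high animals with F2 numbers above the median they were 892 for Cyp4a12a, 1040 for Cyp4a12b, 1525 for Cyp2d9 and 3237 for Hsd3b5, and up to the median 1058 for Cyp4a12b. With 5 components removed they were 825 for Cyp4a12a, 444 for Cyp2d9 and 465 for Hsd3b5. In the upper and lower component alone they were 909 and 204 for Cyp4a12a, and 3207 and 10 for Hsd3b5. In Eif2s3y-low animals with F2 numbers up to and above the median, with fewer animals in each fit, they were 56 and 487 for Cyp4a12a, 42 and 69 for Cyp4a12b, 31 and 113 for Cyp2d9, and 33 and 228 for Hsd3b5. With 5 components removed they were 85 for Cyp4a12a, 179 for Cyp4a12b and 144 for Hsd3b5. In the upper and lower component alone they were 1 and 14 for Cyp4a12a, and 1 and 0 for Cyp4a12b (limma, with 664 genes at an unadjusted p under 0.05 in the latter).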

Other observations

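Markers of blood vessels, pancreas and muscle were also counted. Of 6 measured endothelial genes 2 rose with Hsd3b5 in Eif2s3y-high animals, the scavenger receptor Stab2 (r = 0.297) and the cadherin Cdh5 (0.197), and 1 fell, the TGF-beta coreceptor Eng (-0.369), by limma. With Cyp2d9 2 of the 6 fell there, the adhesion molecule Pecam1 (-0.230) and Eng (-0.214). Of 6 pancreatic genes 1 rose with Hsd3b5, the trypsinogen Try5 (0.242), and of 5 muscle genes 1 fell as Cyp4a12a rose, the calcium-binding protein Pvalb (-0.270), which also fell as Cyp4a12b rose (-0.318). The shares of all genes there were 22.7% up and 20.8% down with Hsd3b5. They were 18.1% down with Cyp2d9, 11.7% with Cyp4a12a and 9.79% with Cyp4a12b.

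The 30 Eif2s3y-high animals of the lower Eif2s3y cluster had F2 numbers from 10 to 286, and 25 of them had an animal with a neighbouring F2 number in the same cluster.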
